A study of Homo sapiens with 4 samples.

Results

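The genes described here are those that the authors called different between Huh7 cells after sonodynamic therapy (SDT, group D) and Huh7 cells before it (group C). They were collected as every gene named under any Gene Ontology (GO) term in the D vs. C table. This gave 4369 genes of the 22148 background genes of that table, or 19.7%. The HepG2 comparison (B vs. A) gave 4783 genes in the same way, and 6871 genes stood in at least 1 of the 2 lists. Huh7 and HepG2 are established human lines labelled as hepatocellular carcinoma, and the labels name LND, whereas HMME comes from the study's methods. Groups A (HepG2) and C (Huh7) were untreated. Groups B (HepG2) and D (Huh7) received targeted nanobubbles carrying the sonosensitizer hematoporphyrin monomethyl ether (HMME) and lonidamine (LND), followed by low-frequency ultrasound. All 4 groups were grown in the same serum-containing medium, and each was 1 library of ribosomal RNA-depleted total RNA. No library of cells given ultrasound, empty nanobubbles, HMME or LND alone was analysed here, so the effects of these agents cannot be told apart.

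In SDT, ultrasound excites a porphyrin-type sensitizer inside the cell and reactive oxygen species are formed. LND is known to block the mitochondrial pyruvate carrier, the monocarboxylate transporters that export lactate, and complex II of the respiratory chain. Hepatocytes make most plasma proteins, including clotting factors, complement and lipoproteins, and they take up and conjugate bilirubin, bile acids and drugs. Liver cancer lines keep a part of this program, which liver-enriched transcription factors maintain.

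The values are memberships in gene lists. A listed gene passed the authors' adjusted p-value limit of 0.05, in either direction, and the tables hold neither its level nor its direction. Nothing below therefore says that a gene was higher or lower after SDT, no value has a replicate error, and no test was made. A gene that is not listed may have changed without passing the limit, may not have been expressed, or may carry no GO term. The tables carry no read counts, so the depth behind the calls is unknown here.

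Of the 4369 Huh7 genes, 4360 were protein-coding genes of the GENCODE 29 annotation and 9 were loci assembled from the reads. Thus 21.9% of the 19951 protein-coding genes were listed in Huh7, against 23.9% in HepG2. The lists shared 2281 genes, which were 52.2% of the Huh7 list and 47.7% of the HepG2 list. The other 2088 genes of the Huh7 list were absent from the HepG2 list. Among protein-coding genes, 10.4% were listed in Huh7 and not in HepG2 and 11.4% were listed in both lines. These percentages are the background for the gene lists that follow. The difference between the lines was not tested, since each list rests on 1 library before and 1 after SDT.

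The labelled cell type was checked against marker genes, as far as lists without levels allow. Of 11 hepatocyte markers, 7 were listed in Huh7 (ALB, AFP, TTR, APOA1, APOB, FGB and HNF4A), whereas TF, SERPINA1 and FOXA2 were among those that were not. Of 27 markers of other cell types, 15 (55.6%) were listed in Huh7 and 17 in HepG2. The Huh7 genes comprised 5 of 10 leucocyte markers (PTPRC, CD14, LYZ, ITGAM and CD68), 6 of 8 endothelial markers (PECAM1, CDH5, VWF, CLDN5, ERG and PLVAP) and 4 of 9 fibroblast and stellate cell markers (LUM, ACTA2, PDGFRB and FAP). A high share of listed genes was therefore not limited to liver genes. The levels of these markers are not in the tables, and their part in the results below was not tested.

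Sequence beside the stress genes is shown first, because all of their integrated stress response members listed in Huh7 were also listed in HepG2. The integrated stress response is driven by the factor ATF4, which binds amino acid response elements in its target genes. The letters TGATGNAA, a core of this element, were searched on both strands of the 250 bases before each gene start in the RefSeq promoters of build GRCh38.p14. Of 27305 genes with a promoter, 3.89% held the letters. Of the 16 listed genes of this response, 15 had a promoter and 4 of them held the letters, as did 1 of 10 genes of the response that were not listed in Huh7. Those 4 are printed 5′ to 3′ with the matching letters in capitals. A gene can have several promoters, and here and below it was counted when any of them held the letters. The promoter shown is the one with the most matches and, among equals, the lowest coordinate, so it need not be the main start. Other starts of the same gene may lack the letters. The stretches are CHAC1 (chr15:40953221-40953470, + strand), ASNS (chr7:97872409-97872658, - strand), HERPUD1 (chr16:56931892-56932141, + strand) and ATF3 (chr1:212565157-212565406, + strand).
CHAC1: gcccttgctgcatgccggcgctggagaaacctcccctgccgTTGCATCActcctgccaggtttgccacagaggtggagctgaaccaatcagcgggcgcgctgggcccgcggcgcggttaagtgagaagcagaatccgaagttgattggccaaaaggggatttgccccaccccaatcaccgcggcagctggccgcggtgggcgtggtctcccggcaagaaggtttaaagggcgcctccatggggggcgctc
ASNS: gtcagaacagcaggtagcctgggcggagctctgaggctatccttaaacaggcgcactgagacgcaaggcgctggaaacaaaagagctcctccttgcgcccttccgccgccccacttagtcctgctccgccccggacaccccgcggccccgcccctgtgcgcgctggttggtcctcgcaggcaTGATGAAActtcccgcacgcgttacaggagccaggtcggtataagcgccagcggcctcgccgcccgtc
HERPUD1: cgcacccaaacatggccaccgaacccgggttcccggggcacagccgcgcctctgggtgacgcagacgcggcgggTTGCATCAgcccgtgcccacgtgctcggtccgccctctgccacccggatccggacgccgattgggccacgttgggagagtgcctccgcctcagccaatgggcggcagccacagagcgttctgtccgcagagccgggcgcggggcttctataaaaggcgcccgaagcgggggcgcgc
ATF3: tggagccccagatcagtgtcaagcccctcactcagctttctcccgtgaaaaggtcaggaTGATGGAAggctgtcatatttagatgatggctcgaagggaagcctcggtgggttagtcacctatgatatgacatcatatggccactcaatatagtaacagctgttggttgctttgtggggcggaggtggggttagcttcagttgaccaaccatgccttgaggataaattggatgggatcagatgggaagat
The match began 209 bases before the start in CHAC1, 68 in ASNS, 176 in HERPUD1 and 191 in ATF3. In CHAC1 and HERPUD1 the letters lay on the opposite strand and read TTGCATCA in the printed direction. A match describes letters only and is no evidence of binding.

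All 16 listed genes of the unfolded protein and integrated stress response, of 28 in the list (57.1%), were also listed in HepG2. Among the transcription factors these were ATF4, the central factor of the response, ATF3, CEBPB and DDIT3 (CHOP). Among the targets and effectors were ASNS, the asparagine synthetase, CHAC1, a glutathione-degrading enzyme, SESN2 and DDIT4, inhibitors of mTORC1 signalling, and the pseudokinases TRIB1, TRIB2 and TRIB3. PPP1R15A (GADD34), which ends the translation block by dephosphorylating eIF2alpha, was listed too. On the endoplasmic reticulum side, the sensor ERN1 (IRE1), the chaperone HSPA5 (BiP), its co-chaperone DNAJB9 and the degradation factor HERPUD1 were listed. HepG2 had 7 further members, EIF2AK2, EIF2AK3 (PERK), NUPR1, SESN1, SESN3, VLDLR and XBP1, so that 82.1% of the list was listed there. The 5 members listed in neither line were ATF5, ATF6, EIF2AK1, EIF2AK4 and PPP1R15B.

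Immediate early genes, which switch on within minutes of a stimulus, showed the same overlap. Of 32 genes, 17 (53.1%) were listed in Huh7, and EGR2 was the single gene among them that was absent from the HepG2 list. The 16 shared genes held the AP-1 subunits FOS, FOSB, FOSL1, JUN, JUNB and JUND, the zinc finger factors EGR1, EGR3, KLF2 and KLF4, the nuclear receptor NR4A1, the phosphatases DUSP1, DUSP5 and DUSP8, and IER2 and IER5. In HepG2, 23 genes were listed, with MYC, KLF6, KLF10, ZFP36, ZFP36L1, DUSP6 and IER3 in addition.

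Of 81 heat shock proteins and chaperones, 20 (24.7%) were listed, a share near the background of all protein-coding genes. Shared with HepG2 were 15 genes, including the inducible HSP70 genes HSPA1A, HSPA1B and HSPA6, the HSP40 co-chaperones DNAJB1, DNAJB2 and DNAJB6, the small heat shock protein HSPB8 and the HSP70 co-factor BAG3. Listed in Huh7 and not in HepG2 were HSPH1 (HSP110), HSPA1L, DNAJB4, DNAJC8 and DNAJC17. The constitutive genes HSPA8, HSP90AA1, HSP90AB1 and HSPD1 were listed in neither line. The letters GAANNTTC, a core of the heat shock element that read the same on both strands, stood in 7.05% of all promoters. They stood in 8 of the 18 listed chaperone genes that had a promoter and in 10 of the 55 that were not listed. HSPA1A (chr6:31815293-31815542, + strand), HSPA1B (chr6:31827488-31827737, + strand), HSPA6 (chr1:161524290-161524539, + strand) and DNAJB1 (chr19:14518398-14518647, - strand) are shown, since the first pair also shows how alike neighbouring copies can be.
HSPA1A: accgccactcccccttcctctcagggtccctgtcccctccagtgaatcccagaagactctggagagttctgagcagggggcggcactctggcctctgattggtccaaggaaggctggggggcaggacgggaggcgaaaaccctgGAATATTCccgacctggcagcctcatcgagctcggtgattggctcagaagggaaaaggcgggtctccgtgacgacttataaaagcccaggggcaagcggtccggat
HSPA1B: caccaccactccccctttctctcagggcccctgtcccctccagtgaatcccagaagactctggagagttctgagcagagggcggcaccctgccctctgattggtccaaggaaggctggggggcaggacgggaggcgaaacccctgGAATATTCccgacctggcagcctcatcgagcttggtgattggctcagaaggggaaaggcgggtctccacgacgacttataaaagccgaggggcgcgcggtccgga
HSPA6: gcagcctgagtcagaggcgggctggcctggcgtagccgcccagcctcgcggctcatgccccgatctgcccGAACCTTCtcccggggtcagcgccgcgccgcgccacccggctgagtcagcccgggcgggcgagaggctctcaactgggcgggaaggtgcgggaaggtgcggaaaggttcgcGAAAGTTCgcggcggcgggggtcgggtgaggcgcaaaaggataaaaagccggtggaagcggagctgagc
DNAJB1: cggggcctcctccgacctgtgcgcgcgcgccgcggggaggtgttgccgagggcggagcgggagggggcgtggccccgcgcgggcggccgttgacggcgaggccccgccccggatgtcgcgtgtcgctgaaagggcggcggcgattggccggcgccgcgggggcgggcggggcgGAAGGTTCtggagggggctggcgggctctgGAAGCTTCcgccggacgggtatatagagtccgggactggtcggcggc
HSPA1A and HSPA1B each held 1 match, at 106 and 105 bases before the start, and HSPA6 and DNAJB1 each held 2. The RefSeq stretches of HSPA1A and HSPA1B were the same at 277 of 299 bases (92.6%). Reads from such copies can be split between them, and 71.2% of the 75-base stretches of the HSPA1A transcript and 70.1% of those of HSPA1B also occurred in another protein-coding gene. The calls of these genes are therefore uncertain as calls of single genes.

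Fewer p53 target genes were listed in Huh7 than in HepG2. In Huh7, 7 of 25 (28%) were listed, namely CDKN1A (p21), GADD45A, GADD45G, PLK3, the death receptor TNFRSF10B and the BH3-only genes BBC3 (PUMA) and PMAIP1 (NOXA). All but GADD45G were shared with HepG2, where 16 (64%) were listed, including MDM2, BAX, FAS, BTG2, AEN, TIGAR and ZMAT3. Of 19 BCL2 family genes, 5 (26.3%) were listed in Huh7 (BBC3, PMAIP1, HRK, BCL2A1 and BCL2L2), all of them also in HepG2, against 12 (63.2%) in HepG2. Of 36 caspases, death ligands, receptors and inhibitors, 8 (22.2%) were listed in Huh7 against 10 (27.8%) in HepG2. The Huh7 genes included the executioner caspase CASP6, the inflammatory CASP5, the inhibitor antagonist DIABLO, the ligand FASLG and the TRAIL receptors TNFRSF10B, TNFRSF10C and TNFRSF10D. CASP8 and CASP9 were listed in neither line. Of 35 autophagy genes, 9 (25.7%) were listed in Huh7, among them SQSTM1 (p62), ULK1, GABARAPL1, WIPI1 and the lysosomal factor TFEB, against 15 (42.9%) in HepG2. The Huh7 shares of the BCL2, caspase and autophagy lists lay near the 21.9% of all protein-coding genes.

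Complement and coagulation was read by role. Of its 70 genes, 42 (60%) were listed in Huh7 and 27 (38.6%) in HepG2, with 21 shared. The corresponding KEGG pathway, complement and coagulation cascades, had the highest rich factor of the Huh7 pathways with at least 20 background genes. The rich factor is the number of listed genes divided by the background genes of the pathway, and was 0.64 (44 of 69) in Huh7 and 0.42 (29 of 69) in HepG2. Its listed genes include AL109811.4, AL049629.2 and AL645922.1, which have a clone name and no gene name of their own.

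Among 17 clotting factors, 11 were listed in Huh7 and 3 in HepG2. The genes absent from the HepG2 list were the fibrinogen chains FGA, FGB and FGG, which form the clot, the factors F5, F7, F10, F11 and F12, and KNG1, the kininogen of the contact pathway. Prothrombin (F2) and von Willebrand factor (VWF) were listed in both lines. F13A1, F3, F8, F9 and KLKB1 were listed in neither. Among 17 anticoagulant and fibrinolysis genes, 12 were listed in Huh7 and 8 in HepG2, and all 8 of HepG2 were shared. The shared genes included PROC and PROS1 (protein C and S), SERPINC1 (antithrombin), SERPIND1 (heparin cofactor II), SERPINF2 (antiplasmin), PLAU and PLAUR. Listed in Huh7 alone were A2M, CPB2, SERPINA5 and THBD, the thrombin receptor thrombomodulin. The GO term negative regulation of blood coagulation had the largest share of the biological process terms with 30 to 500 background genes, with 27 of 44 genes (61.4%) against 17 (38.6%) in HepG2.

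Of 11 central, alternative and terminal complement genes, 9 were listed in Huh7 and 5 in HepG2. C3, properdin (CFP) and the membrane attack components C6, C7 and C9 were shared, and C5, C8A, C8B and CFB were listed in Huh7 and not in HepG2. CFD and C8G were listed in neither. Of 11 classical and lectin pathway genes, 4 were listed in Huh7 (C4A, C4B, MBL2 and MASP1) and 5 in HepG2. C4A and C4B are near-identical copies, with 90.5% and 91% of their 75-base stretches found in another gene, and their calls cannot be assigned to either copy. CFB shared 78% of its stretches with another gene model. The clone-named AL645922.1 of the same KEGG pathway was listed in both lines, and whether it is that model was not checked. The absence of CFB from the HepG2 list is therefore uncertain as a difference between the lines. Of 14 regulators and receptors, 6 were listed in each line. CFI was among those absent from the HepG2 list, and C4BPA, C4BPB, CD59 and CR2 were shared. CFI had 42.7% of its stretches in another gene, so its call is uncertain as the call of a single gene.

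**Figure D1:**
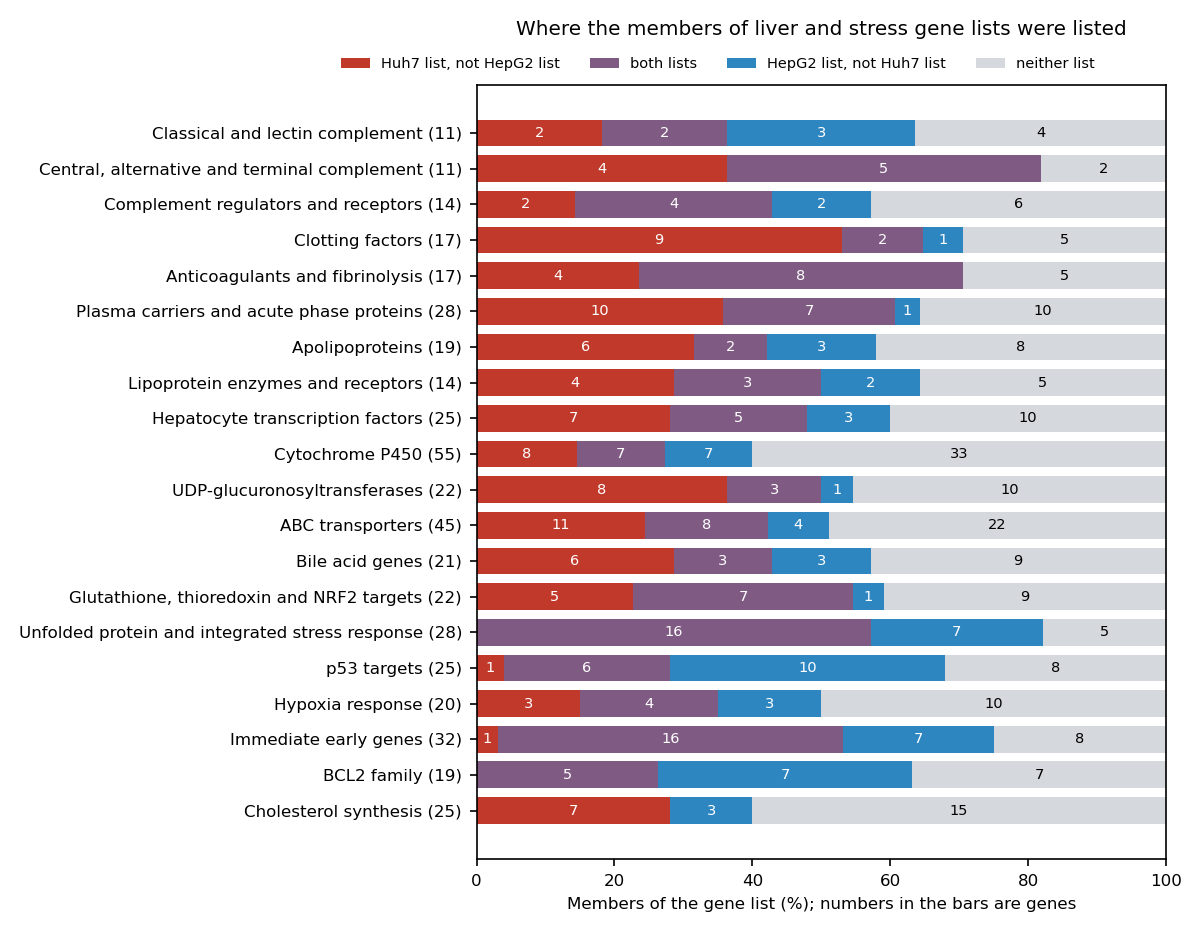
Membership of liver and stress gene lists in the Huh7 and HepG2 lists. Each bar is 1 gene list (number of members in parentheses), its segments are the percentages of members in each class, and the numbers are genes. The clotting factor bar is mostly Huh7 list alone (9 of 17 genes), whereas the 16 Huh7 genes of the unfolded protein and integrated stress response all lie in the segment of both lists.

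Of 28 plasma carriers and acute phase proteins, 17 (60.7%) were listed in Huh7 and 8 (28.6%) in HepG2. Shared were albumin (ALB), its fetal counterpart AFP, the heme carrier HPX, the copper carrier CP, FETUB, HRG and ITIH3. Listed in Huh7 and not in HepG2 were TTR and SERPINA7, carriers of thyroid hormone, GC, the vitamin D carrier, SERPINA6, the cortisol carrier, the acute phase proteins ORM1, ORM2, SERPINA3 and SAA4, ITIH2, and HAMP, the iron hormone hepcidin. ORM1 and ORM2 are neighbouring copies, with 39.4% and 41.8% of their stretches found in another gene. SAA4 had 62% and SERPINA3 56% of its stretches in another gene. The calls of these 4 genes are uncertain as calls of single genes. TF, HP, CRP, AMBP, AHSG, RBP4, LBP, ITIH1, SAA1 and SAA2 were listed in neither line. Of 7 other fetal and tumour liver genes, SOX9 alone was listed in Huh7, and the tumour marker GPC3 was listed in HepG2 and not in Huh7. AFP, listed in both lines, was counted above with the plasma proteins and is not among these 7.

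Of 19 apolipoproteins, 8 were listed in Huh7 and 5 in HepG2, and the pair APOD and APOL2 was shared. APOA1 and APOA2, the main proteins of high-density lipoprotein, APOB, the backbone of very low-density lipoprotein, APOC3, an inhibitor of triglyceride clearance, APOH and APOL6 were listed in Huh7 and not in HepG2. APOE, APOA4 and APOL1 were listed in HepG2 and not in Huh7. Of 14 lipoprotein enzymes and receptors, 7 were listed in Huh7. LCAT, which esterifies cholesterol, the hepatic lipase LIPC and the receptor SCARB1 were among those absent from the HepG2 list, and CETP, MTTP and ANGPTL4 were shared. The GO term protein-lipid complex remodeling held 13 of 34 genes in Huh7 and 6 in HepG2.

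Of 25 cholesterol synthesis genes and regulators, 7 (28%) were listed in Huh7 and 3 (12%) in HepG2, and no gene was shared. The 7 genes included HMGCS1, which acts before mevalonate is made, IDI1 and FDPS, which make the isoprenoid precursors, and HSD17B7 and EBP of the late steps. HepG2 listed INSIG1 and TM7SF2 among its genes. SREBF2, SQLE, LSS, FDFT1 and 11 others were listed in neither. Of 42 fatty acid genes, 13 were listed in Huh7 against 9 in HepG2. The elongases ELOVL2, ELOVL3 and ELOVL6, the desaturase family gene FADS3, FABP1, ACOX2 and PPARD were absent from the HepG2 list, and the lipid droplet proteins PLIN1, PLIN2, PLIN4 and PLIN5 and the acyltransferase DGAT2 were shared. FASN, SCD, ACACA, ACLY and CPT1A were listed in neither line.

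Of 25 hepatocyte transcription factors, 12 (48%) were listed in Huh7 and 8 (32%) in HepG2. HNF4A, CEBPA, CEBPB, GATA4 and the bile acid receptor NR1H4 (FXR) were shared. The pioneer factors FOXA1 and FOXA3, ONECUT1 (HNF6), PROX1, NR5A2 (LRH-1), NR0B2 (SHP), the repressor that acts below FXR, and NR1I3 (CAR), a drug sensor, were listed in Huh7 and not in HepG2. HHEX and PPARA were among those listed in HepG2 and not in Huh7. Of 21 bile acid genes, 9 were listed in Huh7 against 6 in HepG2. The export pump ABCB11, the conjugating enzyme BAAT, CYP7B1, FGF19 and its receptor pair FGFR4 and KLB were absent from the HepG2 list. The uptake transporter SLC10A1, the exporter subunit SLC51B and HSD3B7 were shared, and CYP7A1, the first enzyme of bile acid synthesis, was listed in HepG2 and not in Huh7.

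UDP-glucuronosyltransferases, which conjugate bilirubin, steroids and drugs, had more listed genes in Huh7 than in HepG2. Of 22 genes, 11 (50%) were listed in Huh7 and 4 (18.2%) in HepG2. In the UGT2 family 8 of 10 genes were listed, of which UGT2A2, UGT2A3, UGT2B7, UGT2B10, UGT2B15 and UGT2B17 were absent from the HepG2 list and UGT2A1 and UGT2B4 were shared. In the UGT1A family 2 of 9 were listed, UGT1A1, the bilirubin enzyme, and UGT1A4. HepG2 listed another member of this family, UGT1A6, which was not listed in Huh7. The UGT1A genes share their last exons, and the UGT2 genes are neighbours of similar sequence. UGT1A4 had 64.1% of its stretches in another gene, UGT2A2 53.9%, and UGT2B15 and UGT2B17 18.4% each. The absence of UGT1A4 and UGT2A2 from the HepG2 list is therefore uncertain as a difference between the lines. Because these genes recur in many KEGG pathways, 10 of them stood in each of 11 pathways, against 3 in HepG2. They made up 10 of the 14 listed genes of ascorbate and aldarate metabolism, 10 of the 15 of porphyrin and chlorophyll metabolism and 10 of the 19 of drug metabolism by other enzymes. These pathways had 3 of the 5 largest excesses of the Huh7 over the HepG2 rich factor, at 0.52 against 0.19, 0.37 against 0.12 and 0.41 against 0.20, and are not independent of each other. The remaining pair was vitamin digestion and absorption (0.46 against 0.21), with APOA1, APOB, SCARB1, CUBN and TCN2 among the Huh7 genes, and complement and coagulation.

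Cytochrome P450 genes and glutathione and sulfotransferases were closer to the background. Of 55 cytochrome P450 genes, 15 (27.3%) were listed in Huh7 and 14 in HepG2, with 7 shared. CYP2C19, CYP2B6 and CYP3A7 were shared, CYP2E1, CYP3A5, CYP1B1, CYP26A1 and CYP7B1 were absent from the HepG2 list, and CYP3A4, CYP1A1 and CYP1A2 were listed in neither line. CYP3A7 had 53.8% and CYP2C19 46% of its stretches in another gene, so these calls are uncertain as calls of single genes. Of 32 glutathione and sulfotransferases, 9 were listed in Huh7 and 5 in HepG2, and GSTO2 alone was shared. The sulfotransferases SULT1A2, SULT1A4, SULT1B1, SULT1E1, SULT2A1 and SULT4A1 and the transferases GSTM1 and GSTA5 were absent from the HepG2 list. SULT1A4 shares 91.2% of its stretches with another gene, and its twin SULT1A3 was listed in HepG2, so the copies cannot be told apart. Of 38 alcohol, aldehyde and aldo-keto dehydrogenases, 14 (36.8%) were listed in each line, with 8 shared, a share above that of all protein-coding genes.

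Among 45 ABC transporters, 19 (42.2%) were listed in Huh7 and 12 (26.7%) in HepG2. The ABCB family had 5 of 9 genes listed, including the drug pump ABCB1 (MDR1), ABCB11 and ABCB6, a porphyrin transporter, all absent from the HepG2 list, and ABCB10, which was shared. ABCB6 had 89.1% of its stretches in another gene model. Others absent from the HepG2 list were ABCG5, a sterol exporter, ABCA4, ABCA5, ABCA10, ABCB5, ABCC6, ABCC8 and ABCD3. ABCG2, an exporter of porphyrins, and ABCC2 were listed in neither line. Of 350 solute carriers, 122 (34.9%) were listed in Huh7 and 107 (30.6%) in HepG2. Of 12 sodium-glucose family genes (SLC5), 7 were listed in Huh7, and none of them was among the 3 of HepG2. They were SLC5A2, SLC5A4, SLC5A8, SLC5A9, SLC5A10, SLC5A11 and SLC5A12. Of 48 mitochondrial carriers (SLC25), 8 (16.7%) were listed. The organic cation transporter SLC22A2, the glucose transporters SLC2A2 and SLC2A4 and the amino acid carriers SLC38A3 and SLC38A7 were also absent from the HepG2 list.

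Genes tied to the agents were read against the share of all protein-coding genes, 21.9% in Huh7. Of 25 heme and porphyrin genes 24% were listed, and of 59 genes of LND targets and glucose metabolism 30.5%. Of 9 heme synthesis genes, ALAS2 and UROS were listed in Huh7 and none in HepG2. ALAS1, the liver form of the first enzyme, and FECH, the last enzyme, were not. Of 16 genes of heme transport and breakdown, the heme oxygenase HMOX1 and HPX were listed in both lines, and ABCB6 and the heme transporter SLC48A1 in Huh7 alone. Of 8 monocarboxylate and pyruvate carriers, MPC2, a subunit of the mitochondrial pyruvate carrier, and SLC16A8 were listed in Huh7 and not in HepG2, and SLC16A4 and SLC16A7 (MCT2) were shared. SLC16A1 (MCT1), MPC1 and BSG were listed in neither, and SLC16A3 (MCT4) in HepG2 alone. The GO term monocarboxylic acid transmembrane transporter activity had the largest share of the molecular function terms with 30 to 500 background genes, with 24 of 49 genes (49%) against 17 in HepG2. Besides MPC2, SLC16A4, SLC16A7 and SLC16A8, its listed genes held other carriers. These included the bile acid carriers ABCB11, SLC10A1 and SLC51B, and SLC6A12 and SLC6A13. The share of this term is therefore not one of LND targets alone. Of 11 complex II and permeability pore genes, SDHC and VDAC1 were listed in Huh7 and none in HepG2. Of 34 glycolysis and lactate genes, 10 were listed in Huh7, with HK1, TPI1, ENO2, PDK3 and SLC2A2 absent from the HepG2 list and HK3, LDHC, PDK2, PFKFB1 and SLC2A3 shared. LDHA, PKM, GAPDH, PGK1 and SLC2A1 were listed in neither line.

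Respiratory chain genes were rarely listed. Of 87 nuclear subunits of the respiratory chain and ATP synthase, 3 (3.45%) were listed in Huh7, ATP5MC1, NDUFB3 and SDHC, and 5 in HepG2. Of 13 subunits encoded by mitochondrial DNA, MT-ND6 alone was listed in Huh7 (7.69%), whereas 8 (61.5%) were listed in HepG2, including MT-ND5, MT-CYB, MT-CO3 and MT-ATP6. MT-ND6 is the single protein of that list made from the opposite strand to the others. Among the GO terms with 100 to 500 background genes, mitochondrial respiratory chain was one of the 6 with the smallest share, at 4 of 110 (3.64%) against 12 in HepG2.

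Antioxidant genes split by role. Of 15 superoxide and peroxide enzymes, GPX2, GPX3 and SOD3, of which GPX3 and SOD3 are secreted, were listed in Huh7, and SOD2 in HepG2. CAT, SOD1, GPX4 and all 6 peroxiredoxins were listed in neither line. Of 22 glutathione, thioredoxin and NRF2 target genes, 12 (54.5%) were listed in Huh7 and 8 (36.4%) in HepG2. GCLM, the regulatory subunit of glutathione synthesis, the ferritins FTH1 and FTL, TXNIP, SQSTM1 and the small MAF factors MAFF and MAFG were shared. The catalytic subunit GCLC, the cystine importer SLC7A11, thioredoxin reductase TXNRD1, sulfiredoxin SRXN1 and OSGIN1 were listed in Huh7 and not in HepG2. NFE2L2 (NRF2), KEAP1 and NQO1 were listed in neither. SRXN1 had 84.6% of its stretches in another gene model. Of 11 metallothioneins, MT1G and MT4 were shared, and MT1A and MT1B were listed in Huh7 and not in HepG2. Of 20 hypoxia genes, 7 were listed in each line. HIF1A, LOX and NDRG1 were absent from the HepG2 list, and VEGFA, ADM, ANKRD37 and BNIP3L were shared.

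**Figure D2:**
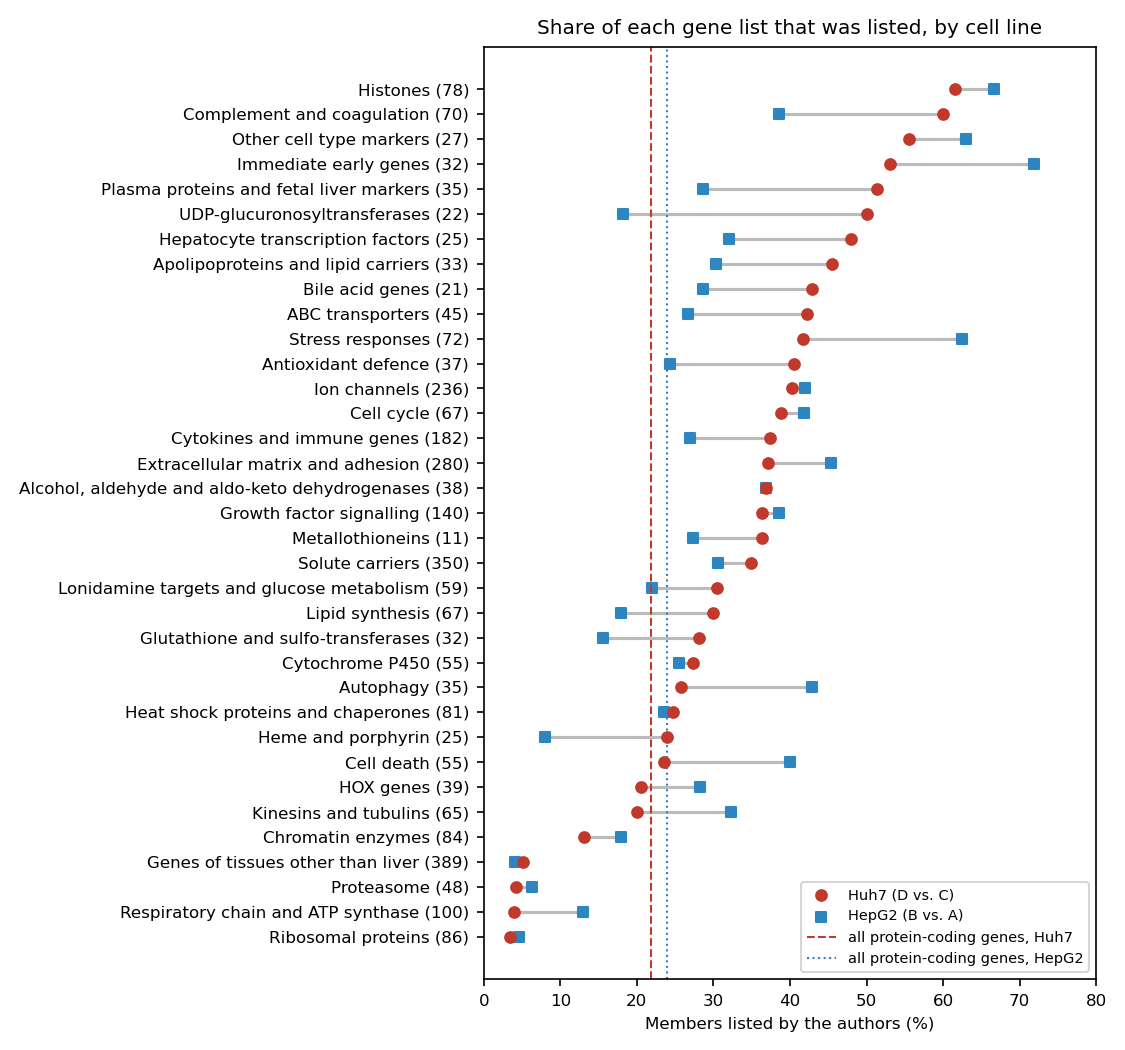
Percentage of the members of 35 gene lists that were listed in Huh7 (circles) and HepG2 (squares), with the number of members in parentheses. The dashed and dotted lines are the shares of all protein-coding genes, 21.9% and 23.9%. Complement and coagulation stood at 60% in Huh7 and 38.6% in HepG2, and ribosomal proteins, the respiratory chain, the proteasome and olfactory receptors (plotted as genes of tissues other than liver) lay at the lower end in both lines.

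Histones had the highest share of the 35 gene lists in Huh7. Of 78 core and linker histone genes, 48 (61.5%) were listed in Huh7 and 52 (66.7%) in HepG2, with 38 shared. By type, 13 of 17 H2A, 13 of 18 H2B, 12 of 18 H3, 7 of 15 H4 and 3 of 10 H1 genes were listed. Replication-dependent histone genes are near-identical copies in clusters, and their mRNAs lack poly(A) tails. H3C4, H3C14, H3C15, H4C12 and H4C14 had 100% of their stretches in another gene. Nucleosome had the largest share of the cellular component terms with 30 to 500 background genes (52 of 113 genes, 46%), against 58 in HepG2. Systemic lupus erythematosus, a KEGG pathway that consists largely of histone and complement genes, had a rich factor of 0.50 (68 of 136), against 0.46 in HepG2.

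Cell cycle genes were divided. Of 34 cyclins, kinases, inhibitors and E2F factors, all 13 listed in Huh7 were shared with HepG2, including CCND1, CCNA2, CCNE2, CDK1, CDKN1A, CDKN1C, CDKN2B, E2F2 and E2F8. Of 33 replication and mitosis genes, 13 were listed in Huh7. The helicase subunits MCM5, MCM6 and MCM7, the sliding clamp PCNA, the nucleotide reductase RRM2, the phosphatase CDC25A and the kinase AURKA were absent from the HepG2 list. MCM3, MCM10, GINS1, GINS2, KIF11 and CENPE were shared, and MKI67, TOP2A, PLK1, CDC20 and BUB1B were listed in HepG2 and not in Huh7. Of 84 deacetylases, demethylases and methyltransferases, 11 (13.1%) were listed in Huh7. The genes KMT2B, KMT2D, SETD1A and SETD1B, all methyltransferases of histone H3 lysine, were listed in Huh7 and not in HepG2.

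Of 44 collagens, 17 (38.6%) were listed in Huh7 and 30 (68.2%) in HepG2. COL4A1, COL4A5, COL4A6, COL5A2, COL11A1 and COL12A1 were among the 14 shared genes, and COL6A6, COL8A2 and COL19A1 were absent from the HepG2 list. COL1A1 and COL1A2 were listed in neither line. The GO term for extracellular matrix constituents conferring tensile strength had 14 of 41 genes in Huh7 and 26 in HepG2. Of 12 laminins, 6 were listed in Huh7, among them LAMA2, LAMA3 and LAMC1 that were absent from the HepG2 list, against 4 in HepG2. Of 27 integrins, 13 were listed in Huh7 and 16 in HepG2. The receptor subunits ITGA2, ITGA5, ITGA10 and ITGAL were absent from the HepG2 list. Of 66 metalloproteinases and inhibitors, 24 (36.4%) were listed in Huh7 and 30 (45.5%) in HepG2. The Huh7 genes included the gelatinase MMP2, the sheddase ADAM10 and MMP12, which were absent from the HepG2 list, and MMP1, MMP7, MMP10 and MMP14, which were shared. Collagen binding held 39 of 80 genes (48.8%) against 26 in HepG2, with THBS1, SPARC, LUM and NID1 among those absent from the HepG2 list. Of 23 cadherins, 10 were listed in Huh7 and 9 in HepG2. Of 55 keratins, 13 were listed in Huh7 and 15 in HepG2, among them KRT8, which was shared, and its partner KRT18, which was absent from the HepG2 list. Of 53 clustered protocadherins, 21 were listed in Huh7 and 23 in HepG2, and these genes share their last exons within a cluster, with 50.5% of the stretches of PCDHGA1 and 62% of those of PCDHA8 in another gene.

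Of 65 chemokines and chemokine receptors, 21 (32.3%) were listed in Huh7 and 14 (21.5%) in HepG2. The neutrophil attractants CXCL2 and CXCL8 and the monocyte attractant CCL2 were shared, whereas CXCL1, CXCL3, CXCL5 and CXCL6, the interferon-induced CXCL10 and CCL20 were listed in Huh7 and not in HepG2. Of 83 interleukins and receptors, 36 (43.4%) were listed in Huh7 and 28 (33.7%) in HepG2. IL6, IL11, IL1A and IL1RN were shared, and IL33, IL34, IL4R, IL1RAP and IL18R1 were absent from the HepG2 list. Of 15 NF-kB genes, NFKB2 and NFKBIB were absent from the HepG2 list, and RELB, BCL3 and IKBKE were shared. Of 19 HLA genes, 6 were listed in Huh7 and 3 in HepG2, and HLA-C, HLA-DMA and HLA-DPA1 were listed in Huh7 and not in HepG2.

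Of 34 TGF-beta and BMP genes, 16 (47.1%) were listed in Huh7 and 13 in HepG2. BMP6 and BMP2, ligands that induce hepcidin, ID1, a target of BMP signalling, the inhibitor SMAD7, SMAD9, the activin subunits INHBA and INHBC and the antagonist NOG were absent from the HepG2 list. GDF15, TGFB2, TGFBR2, BMPR2, SMAD6, ID2, ID3 and INHBE were shared. Of 47 WNT genes, 17 were listed in Huh7 against 19 in HepG2, with the target and receptor LGR5, the ligase RNF43, FZD4, FZD5 and DKK4 absent from the HepG2 list. RNF43 had 76.2% of its stretches in another gene model. Of 44 receptor tyrosine kinases, 15 were listed in Huh7, including ERBB4, FGFR3, FGFR4, PDGFRA and ALK, which were absent from the HepG2 list, and ERBB3, KIT, MERTK and PDGFRB, which were shared. MET was listed in HepG2 and not in Huh7, and EGFR in neither. Of 15 IGF axis genes, IGFBP1 was shared, and IGF2R and IGFBP5 were listed in Huh7 alone. Of 39 HOX genes, 8 were listed in Huh7 and 11 in HepG2, and of 65 kinesins and tubulins 13 against 21.

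Ion channels, which are mostly known from nerve and muscle, had a share above the background in both lines. Of 95 potassium channel genes, 41 (43.2%) were listed in Huh7 and 45 in HepG2. Of 70 sodium, calcium and TRP channel genes, 26 (37.1%) were listed against 34. Of 71 ligand-gated channel genes, 28 (39.4%) were listed against 20. Glutamate receptor genes, taken by name, had 10 of 19 listed (6 in HepG2) and GABA-A receptor genes 8 of 19 (2 in HepG2). GRINA, listed in neither line, was counted with the glutamate receptor and ligand-gated channel genes by its name alone. GABRA2, GABRA4 and GABRB1 and the NMDA receptor subunits GRIN2A, GRIN2B, GRIN2D and GRIN3A were absent from the HepG2 list. The level of these genes in Huh7 was not available, and low counts behind such calls were not tested. Of 389 olfactory receptor genes, 20 (5.14%) were listed.

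Several amino acid pathways stood among the highest rich factors, read against a median of 0.26 over the 255 pathways with at least 20 background genes. Glycine, serine and threonine metabolism had 22 of 40 genes (0.55), against 20 in HepG2. The serine synthesis enzymes PHGDH and PSAT1, the transsulfuration enzymes CBS and CTH and the glycine cleavage enzyme GLDC were shared, and GATM, SARDH, DAO and BHMT2 were absent from the HepG2 list. Arginine and proline metabolism had 29 of 61 (0.48) against 21, with the urea cycle enzymes OTC and ARG1, the proline enzymes PYCR1 and PRODH and NOS2 absent from the HepG2 list and CPS1, NAGS and ARG2 shared. Tryptophan metabolism had 19 of 40 (0.47) against 15, with TDO2, the liver enzyme that opens the tryptophan ring, IDO2 and HAAO absent from the HepG2 list and IDO1 and KYNU shared. Histidine metabolism had 12 of 23 (0.52), and proximal tubule bicarbonate reclamation 13 of 23 (0.57). MAOA, MAOB and ALDH7A1 were counted in the glycine, arginine, tryptophan and histidine pathways alike, so these pathways are not independent of each other. The glycine pathway also counted CBS beside CBSL, and the arginine pathway ACY1 beside ABHD14A-ACY1. The lowest rich factors were those of ribosome (4 of 134, 0.03), proteasome (2 of 44, 0.05), olfactory transduction (24 of 405, 0.06), RNA polymerase (2 of 32, 0.06) and the citrate cycle (2 of 30, 0.07). Of the fixed lists, 3 of 86 ribosomal protein genes and 2 of 48 proteasome genes were listed. In all, 25 pathways reached 1.5 times the median, of which 19 had more listed genes in Huh7 than in HepG2 and 6 had fewer. This choice, too, favours Huh7, and over all 255 pathways 103 had more listed genes in Huh7, 130 had fewer and 22 had the same number.

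**Figure D3:**
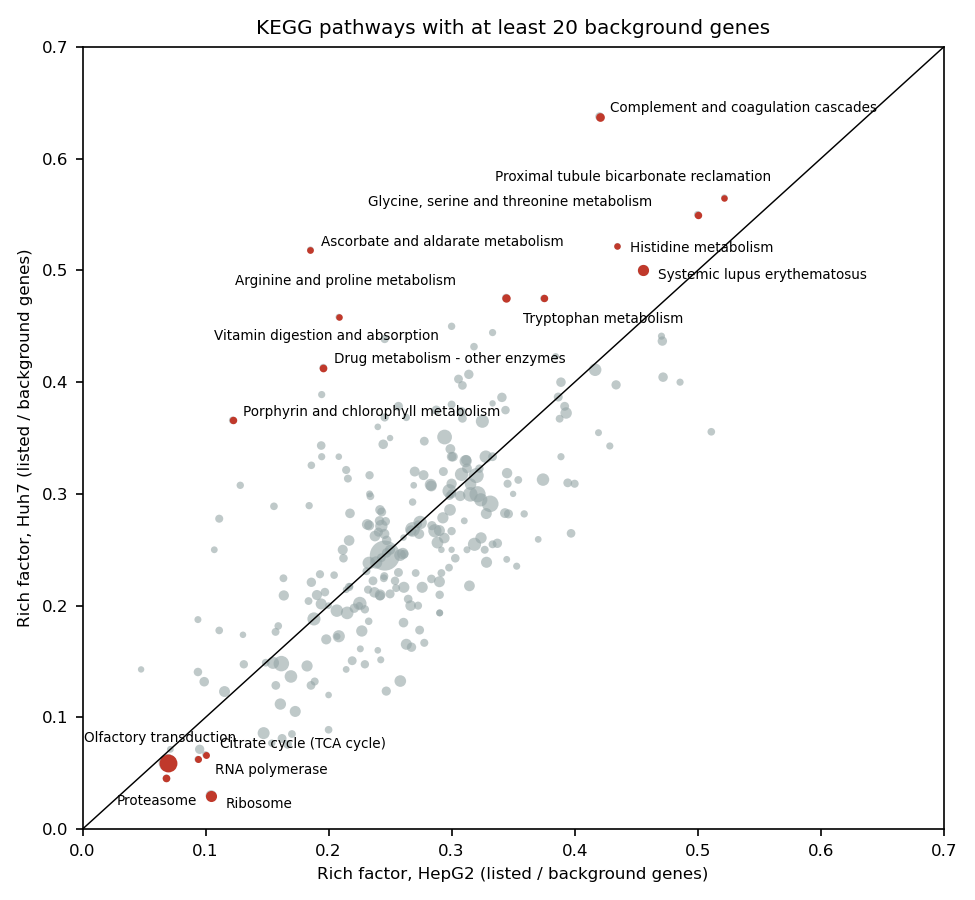
Rich factor (listed genes divided by background genes) of 255 KEGG pathways in HepG2 (x axis) and Huh7 (y axis). Each point is a pathway, its area grows with the number of background genes, the line marks equal values, and named pathways are in red. Complement and coagulation cascades stood highest in Huh7 at 0.64, against 0.42 in HepG2.

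Genes in the Huh7 list and not in the HepG2 list belonged to a median of 2 pathways when they had any, which 769 genes did. The gene in the most pathways was MAP2K1 (MEK1), a kinase of the ERK cascade, with 58, followed by the kinase PRKCB with 56. The adenylyl cyclases ADCY5, ADCY1, ADCY8 and ADCY4 followed with 37, 35, 34 and 33, IKBKG (NEMO), the regulatory subunit of the IKK complex, with 32, and the tyrosine kinase SRC with 25. Of the 10 adenylyl cyclase genes, 5 were listed in Huh7 and 2 in HepG2. The same rule named AC011005.1 with 45 pathways and PVALEF with 29. All 45 pathways of AC011005.1 also held MAP2K1, and the 5 pathways of SHLD2 were the 5 of the glutamate dehydrogenase gene GLUD2. The KEGG placement of such genes is therefore uncertain. The list also held 2745 genes without any KEGG pathway.

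Over all 7410 specific GO terms, with 10 to 500 background genes, the median share of listed genes was 23.2%, and 584 terms (7.88%) reached 2 times the background share. Of these, 418 had a larger share in Huh7 than in HepG2, 101 a smaller share and 65 the same share. Their choice by a high Huh7 share favours Huh7 in this count. Over all 7551 specific terms in either table, 2310 had more listed genes in Huh7, 4314 had fewer and 927 had the same number. Terms overlap in their genes, and 1641 genes of the list accounted for these terms. Besides blood coagulation, the leading biological process terms were regulation of vascular endothelial growth factor production (17 of 31 genes, 54.8%, against 14 in HepG2) and chromatin silencing at rDNA (22 of 41 against 22). Growth plate cartilage development (19 of 36 against 15), cardiac muscle cell contraction (22 of 42 against 20) and response to fluid shear stress (17 of 34 against 12) followed. In the term on growth factor production, HIF1A, ADORA2B, C5, CCR2, CYP1B1 and NOX1 were absent from the HepG2 list, and ATF4, IL6, IL1A and PTGS2 were shared. In the term on fluid shear stress, ETS1, SRC, MEF2C, SMAD7, GJA1, HDAC3 and MTSS1 were absent from the HepG2 list, and KLF2, KLF4, PTGS2 and PDGFRB were shared. The molecular function terms further included sodium ion transmembrane transporter activity (68 of 147 against 57 in HepG2) and solute:sodium symporter activity (25 of 55 against 19). Transmitter-gated ion channel activity (20 of 44 against 12) and glycoprotein binding (17 of 36 against 12) were the others. The cellular component terms included platelet alpha granule lumen (30 of 70 against 19 in HepG2) and anchored to plasma membrane (21 of 51 against 19). HepG2 had as many or more listed genes in potassium channel complex (40 of 93 against 40), nuclear nucleosome (16 of 40 against 23) and microvillus membrane (12 of 30 against 13).

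**Figure D4:**
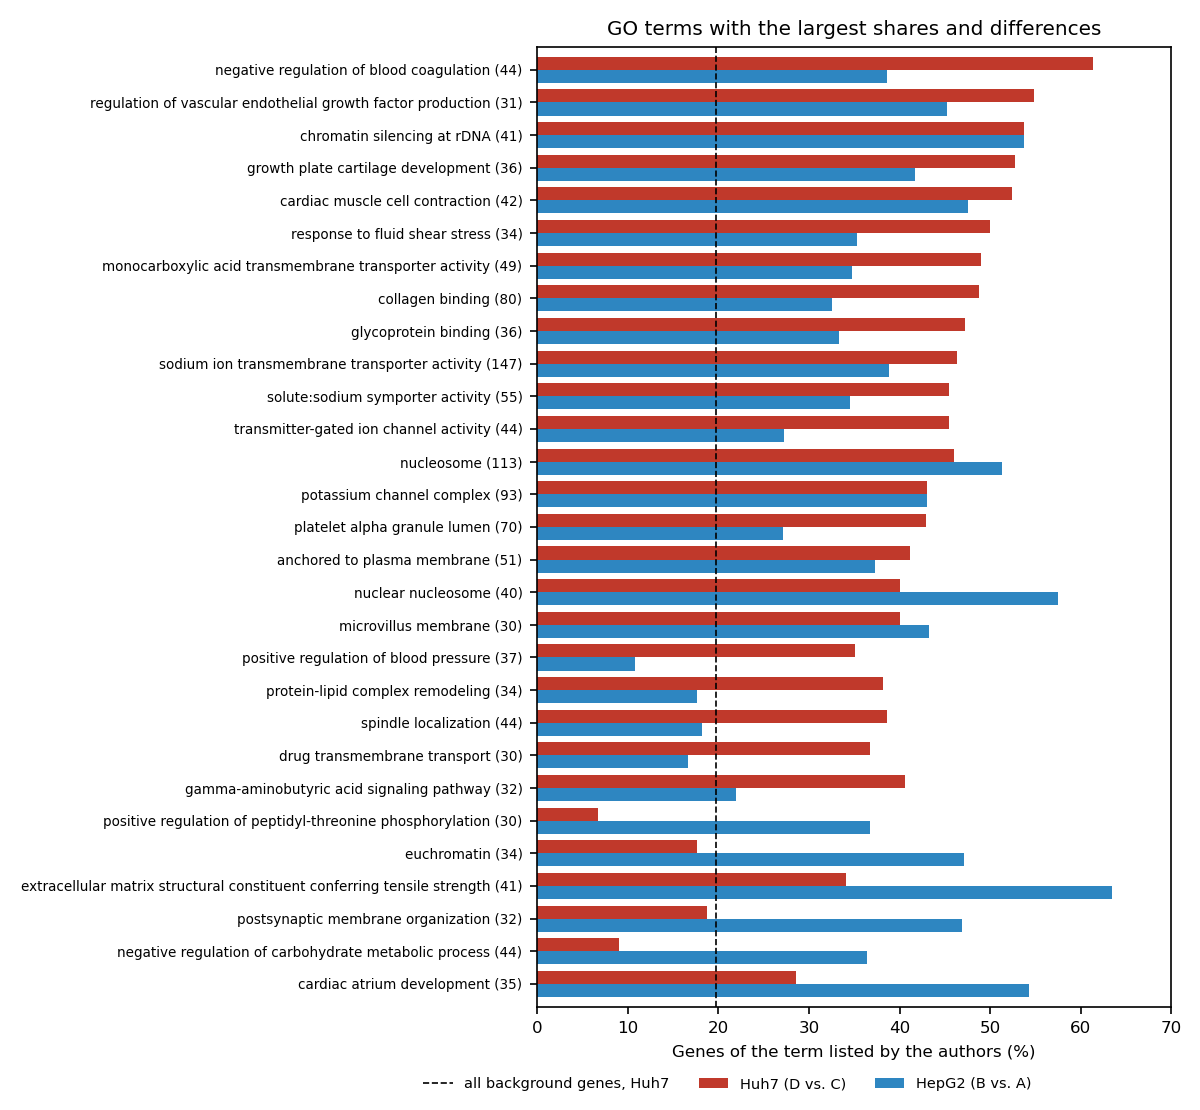
Percentage of the genes of GO terms that were listed in Huh7 (red) and HepG2 (blue), with background genes in parentheses. From the top stand the largest Huh7 shares in each ontology, led by negative regulation of blood coagulation at 61.4%, then the largest excesses over HepG2 and the largest deficits, with the Huh7 share of all background genes (19.7%) as a dashed line.

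The largest excess over HepG2 was that of positive regulation of blood pressure, with 13 of 37 genes (35.1%) against 4 (10.8%). The genes absent from the HepG2 list included AGT, the liver-made precursor of angiotensin, ACE, the enzyme that activates angiotensin, and the receptors ADRB1, AVPR2 and TBXA2R. Negative regulation of blood coagulation and protein-lipid complex remodeling, given above, came next. After them came spindle localization with 17 of 44 against 8, drug transmembrane transport with 11 of 30 against 5 and gamma-aminobutyric acid signaling with 13 of 32 against 7. NUMA1, NUSAP1, MYH9, ACTR3 and ARHGEF2 were among the spindle genes absent from the HepG2 list. The largest deficits were those of positive regulation of peptidyl-threonine phosphorylation (2 of 30 against 11), euchromatin (6 of 34 against 16), postsynaptic membrane organization (6 of 32 against 15), negative regulation of carbohydrate metabolic process (4 of 44 against 16) and cardiac atrium development (10 of 35 against 19), beside the collagen term above. The smallest shares among terms with 100 to 500 background genes were those of the circulating immunoglobulin complex (2 of 130), the lumenal side of the endoplasmic reticulum membrane (3 of 106), odorant binding (3 of 104), nonsense-mediated decay (4 of 140) and the immunoglobulin complex (4 of 135).

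The listed genes were also read in their order along the chromosomes, using only which protein-coding genes are neighbours in GENCODE 29. There were 57 runs of 4 or more neighbouring genes that were all listed in Huh7, with 254 genes in all, and 74 such runs in HepG2. The longest had 7 genes and were histone clusters on chromosome 6, and 7 of the 57 runs held a histone gene. A run of 5 on chromosome 4 consisted of UGT2B17, UGT2B15, UGT2B10, UGT2A3 and UGT2B7, none of which was in the HepG2 list, and UGT2B4, UGT2A1 and UGT2A2 formed a second run of 4 with the sulfotransferase SULT1B1. On chromosome 16, 5 neighbours were the medium-chain acyl-CoA ligases ACSM5, ACSM2A, ACSM2B, ACSM3 and ACSM1, so that 6 of 7 ACSM genes were listed, against 3 in HepG2. On chromosome 12, HCAR2, HCAR3 and HCAR1, receptors for ketone bodies, fatty acids and lactate, stood in a run of 6. How much sequence the neighbouring ACSM and HCAR genes share was not examined gene by gene, so their calls as single genes were not checked. Runs of 4 held the asialoglycoprotein receptor genes ASGR1 and ASGR2, the complement genes C8A and C8B, and the genes ORM1 and ORM2. Only 3 runs of 4 or more lay wholly among genes absent from the HepG2 list, and these included the UGT2B and C8 runs. By chromosome, the listed share ran from 18% on chromosome 20 to 26.4% on chromosome 6.

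The share of listed genes was lowest for the shortest transcripts. Protein-coding genes were divided into 10 equal classes by their longest transcript. In the class of shortest transcripts (81 to 1153 bases), 15.5% were listed in Huh7, against 24% in the class of longest (7119 to 109224 bases). The same ends were 16% and 27.4% in HepG2. In classes 3 to 10 the Huh7 share lay between 21.5% and 24%. The median longest transcript was 3230 bases for genes listed in Huh7 and not in HepG2, 3294 bases for shared genes and 3079 bases for genes in neither list. Genes with at least 50% of their 75-base stretches in another gene made up 6.01% of the Huh7 list and 6.69% of the genes outside it.

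**Figure D5:**
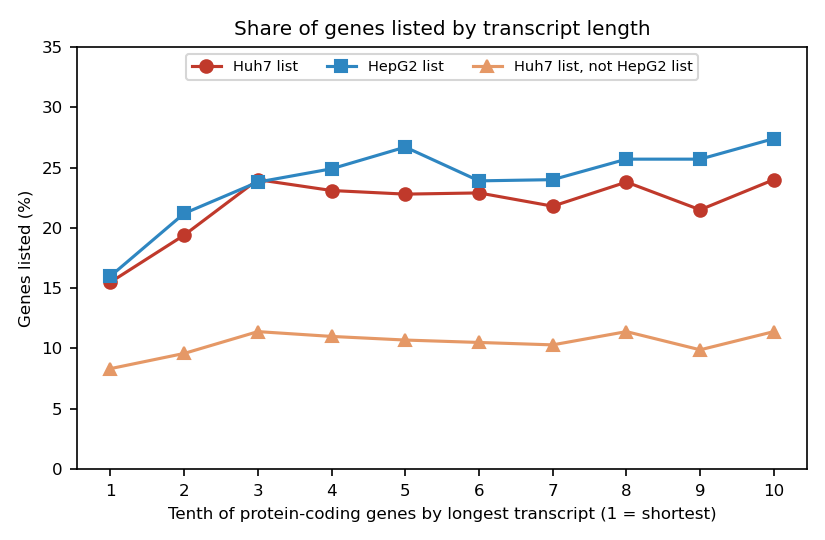
Percentage of protein-coding genes that were listed, in 10 equal classes of the longest transcript of the gene (1 shortest, 10 longest), for the Huh7 list, the HepG2 list and the genes in the Huh7 list and not in the HepG2 list. The Huh7 share was 15.5% in class 1 and 24% in class 10.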

How the data were processed

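Total RNA from 4 groups, each with 1 library, was depleted of ribosomal RNA and sequenced. The submitters' processing notes name Bowtie2 2.2.8, HISAT2, StringTie 1.3.1 and Cuffdiff 2.1.1, and the genome build is not given in the sources used here. The authors called genes at an adjusted p-value under 0.05; their methods name Cuffdiff and their results name another tool. The authors deposited GO (GOseq) and KEGG (KOBAS) tables with numbers of listed and background genes, gene names, and p-values and q-values of enrichment, which were not used. The 2 tables of each comparison were read, and the listed genes of each term were counted. Symbols matched 4346 of 4369 genes, and lists used protein-coding genes of GENCODE 29, so a gene outside the authors' background counts as not listed.

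The gene lists and the comparison were chosen with earlier results of these data known. Named genes were members of these lists, in general all of them where a role had 12 or fewer and otherwise those best known for liver or the treatment, and the 10 genes absent from the HepG2 list with the most pathways. Named terms were those with 30 to 500 background genes and the 6 largest shares per ontology, the 6 largest excesses and deficits to HepG2, and the 6 smallest shares from 100 background genes on, passing over terms with a Jaccard index above 0.5. Named pathways, of at least 20 background genes, were the 8 largest and 5 smallest rich factors and the 5 largest excesses. Other genes of a named term or pathway were chosen after their values were seen. Promoters were RefSeq sequences of GRCh38.p14 and covered 3291 listed genes. The counting steps were tested on made-up cases. Python 3.11.15 was used. Long noncoding and circular RNAs were not analysed here. Some members of these lists are not reported here. Another promoter motif, searched in the clotting factor and plasma protein genes, stood in 3 of 22 listed genes with a promoter and 2 of 13 that were not listed, and is not shown.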

Additional observations from a re-analysis of the deposited data

How the results depend on the processing

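The Huh7 list held 4369 genes from the GO table, and from 3786 (terms with 10 to 500 background genes) to 4381 (with the KEGG table) under other ways of collecting it. The genes absent from the HepG2 list were 2088, and from 1812 to 2092 in the same ways. Without genes that share at least 50% of their 75-base stretches with another gene, a choice made after seeing the data, the counts were 4107 and 1986. The number of specific GO terms at 2 times the background share was 584. It was 572 without histone, UGT1A and clustered protocadherin genes, 225 with terms of 20 to 200 background genes, since fewer terms are then counted, and 1948 with a limit of 1.5 times. The number of KEGG pathways at 1.5 times the median was 25, and 27 with pathways of at least 10 background genes. Shares of gene lists were recomputed with the KEGG table, with current symbols only and with neighbouring members counted once. The KEGG table adds 12 genes and the use of current symbols drops few members, so neither could move a share much. Each share was read against its exact 95% binomial interval, which treats genes as independent, although neighbouring copies are not. Of 204 recomputed shares, 197 stayed within the interval. The 7 others came from counting neighbouring members once, which makes a cluster count as listed when any member is: UDP-glucuronosyltransferases became 75%, clustered protocadherins 66.7%, HLA genes 85.7%, HOX genes 37.5%, olfactory receptors 17.1%, and keratins and metallothioneins 100%. No paired analysis was possible because each group has 1 library and no result comes from a test. With 1 library before and 1 after treatment, a difference between cultures cannot be told apart from one made by SDT, and read depth, which sets how many genes can be called, was not used here.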
